A study of Rattus norvegicus with 46 samples.

Results

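The genes described here build sterols and fatty acids, and they were followed in rat skin that was irradiated and treated with RTA-408. The set is a list of 40 gene symbols, and its members are the array features that the array annotation gives those symbols. Of the 40 genes, 39 were measured among the 23188 features tested. No feature carried the symbol of Hmgcs1, an early enzyme of the mevalonate pathway, so Hmgcs1 is not analysed here. The list holds 5 regulators, 7 mevalonate pathway genes (6 measured), 11 genes of the later sterol steps, 1 sterol transporter, 5 fatty acid synthesis genes, 7 elongases and desaturases, and 4 glycerolipid genes.

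Levels were read on 46 Clariom S arrays, 1 per biopsy, of abdominal skin from 9 Sprague-Dawley rats whose age and sex are not given. The irradiated RTA-408 arm and the irradiated vehicle arm had 3 arrays each on days -4, 1, 3, 7 and 14. The unirradiated vehicle arm had 2 arrays on each of these days, and the baseline group had 6 arrays of skin taken on day -10, before any injection or radiation. RTA-408, a synthetic triterpenoid that activates the antioxidant transcription factor NRF2, or its vehicle DMSO was injected on days -7, -5, -3 and 0, so the unirradiated arm also received DMSO. Radiation was an electron beam of 6 MeV that gave 40 Gy in 4 fractions of 10 Gy over 8 days. Day -4 fell within this course. No unirradiated skin treated with RTA-408 is analysed here, so the drug can be compared with vehicle in irradiated skin only. The same rats were biopsied repeatedly, each biopsy was a 5 mm punch of whole skin, and the second unirradiated array came from another rat on days 7 and 14 than on the earlier days.

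Cells make cholesterol from acetyl-CoA through mevalonate, farnesyl diphosphate, squalene and lanosterol, and they make palmitate from the same acetyl-CoA through malonyl-CoA. Both pathways are switched on by the SREBP transcription factors, encoded by Srebf1 and Srebf2. When sterols are scarce, SCAP carries SREBP out of the endoplasmic reticulum, and when sterols are plentiful the INSIG proteins hold SCAP back. In skin these lipids feed the epidermal barrier, the sebum of sebaceous glands and the membranes of growing hair follicles, and the layer of fat below the dermis stores them as triglyceride.

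All values are log2 signals as the authors deposited them. These reach 19.66 to 19.93 at the top of each array, more than an unstretched 16-bit scan can give, so no difference below is turned into a fold. Array medians lay between 6.84 and 6.95, and 2 arrays of 1 group had an r of 0.927 to 0.990 over the features. By their spike-in signals the arrays fell apart into sets I (18 arrays), II (10) and III (18), a split seen only in the data. All baseline arrays were in set I, and each irradiated arm had 1 array a day in set II. The other arrays were in set I on days -4 and 1 and in set III on days 3, 7 and 14. In the vehicle arm, the irradiated day 14 array of replicate 3 stood apart, with a mean of 15.92 over 10 macrophage markers, against 11.43 and 12.38 on the other arrays of its group. No marker of basal (5 genes) or suprabasal (5 genes) epidermis was at or below the median negative control on every array of any group. A group meets this bar with 1 array above the control, so it does not show whether epidermis was lost on single arrays. In such bulk tissue, fewer cells of a type and less RNA per cell cannot be told apart.

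Of the 39 genes, Fads2, Fasn and Scd had the widest range over the 46 arrays, 6.68, 6.32 and 6.26 on the log2 scale. Scap, Dgat1 and Srebf2 had the narrowest, 1.46, 1.49 and 1.61. The median negative control of an array lay between 5.78 and 6.52. Mvd, mevalonate diphosphate decarboxylase, was at or below it on 8 arrays and Tm7sf2, a sterol reductase, on 1, so small differences of these genes are hard to read. The other 37 genes were above it on every array.

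**Figure D1:**
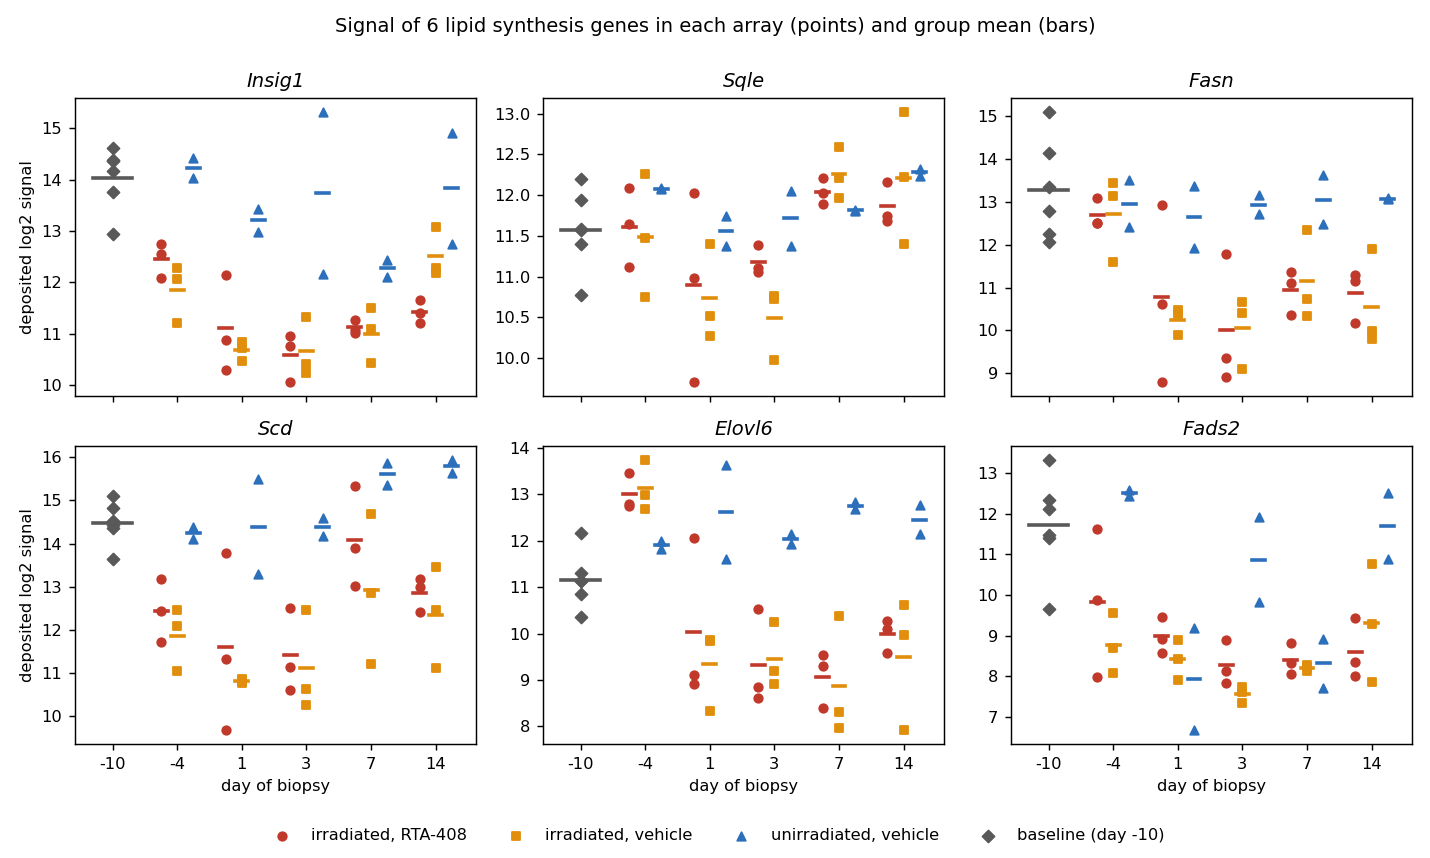
Deposited log2 signal of 6 genes (vertical axes) on each array by day (horizontal axis, baseline at day -10), with points for arrays and bars for group means in irradiated RTA-408, irradiated vehicle, unirradiated vehicle and baseline skin. Insig1 lay between 10.05 and 13.08 on all irradiated arrays of days 1 to 14, against 12.95 to 14.63 at baseline.

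The 300 bases around the annotated start (mostly before it) were available from RefSeq (GRCr8) for 31 of the 40 genes. The promoters of Pmvk, Fdft1, Sqle, Stard4, Acaca, Fasn, Elovl6, Dgat1 and Dgat2 are named only. SREBP binds sterol regulatory elements, often beside a CCAAT box, which recruits the factor NF-Y. The element TCACNCCAC, read on both strands, stood in 0 of the 31 promoters and in 310 of all 27457 promoters of the table (1.129%). The letters CCAAT, read on both strands (ATTGG where the box lies on the other strand), stood in 23 of the 31 promoters (74.194%) and in 10363 of all 27457 (37.743%). A match is a run of letters and not a measured site, and its absence from this window says nothing about the factor. Below are 4 promoters, given 5′ to 3′ along the gene with each CCAAT box in capitals, because the levels of these genes are described below and their windows range between no box and 5.

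Insig1: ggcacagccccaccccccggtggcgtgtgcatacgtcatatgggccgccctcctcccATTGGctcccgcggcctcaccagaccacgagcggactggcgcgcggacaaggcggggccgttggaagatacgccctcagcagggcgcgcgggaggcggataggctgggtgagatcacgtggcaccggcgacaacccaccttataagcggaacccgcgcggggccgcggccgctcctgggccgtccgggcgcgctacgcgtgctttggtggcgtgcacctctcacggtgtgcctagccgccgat
Mvk: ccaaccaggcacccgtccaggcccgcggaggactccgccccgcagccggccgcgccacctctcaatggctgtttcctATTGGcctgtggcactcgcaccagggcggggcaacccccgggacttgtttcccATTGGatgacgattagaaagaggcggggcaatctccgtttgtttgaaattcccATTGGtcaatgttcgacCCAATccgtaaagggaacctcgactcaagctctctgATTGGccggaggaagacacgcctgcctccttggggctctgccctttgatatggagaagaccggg
Scd: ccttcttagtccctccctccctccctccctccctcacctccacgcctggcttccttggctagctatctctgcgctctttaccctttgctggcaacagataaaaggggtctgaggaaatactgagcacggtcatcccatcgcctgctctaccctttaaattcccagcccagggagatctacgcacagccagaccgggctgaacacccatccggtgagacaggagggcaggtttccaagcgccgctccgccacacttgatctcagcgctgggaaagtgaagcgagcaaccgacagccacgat
Fads2: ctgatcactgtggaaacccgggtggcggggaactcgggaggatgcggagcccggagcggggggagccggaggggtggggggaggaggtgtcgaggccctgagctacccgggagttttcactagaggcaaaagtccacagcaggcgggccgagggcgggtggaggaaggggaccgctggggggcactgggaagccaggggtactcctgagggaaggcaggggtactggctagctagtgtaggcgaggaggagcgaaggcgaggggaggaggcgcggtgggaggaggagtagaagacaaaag

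The Insig1 window lies at chr4:8057720-8058019 (minus strand) and holds 1 box, 193 bases before the start. Mvk lies at chr12:47819454-47819753 (minus strand) and holds 5 boxes. Scd at chr1:253231682-253231981 and Fads2 at chr1:216171984-216172283, both on the minus strand, hold none. The expression values of these genes follow by role.

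Each arm was compared with baseline on each day, since the labels name the baseline biopsies as the pretreatment level. In irradiated skin the genes that fell far outnumbered those that rose after day -4. A gene was called when its limma p, adjusted by the Benjamini-Hochberg method over all 23188 features, was under 0.05. On day -4, 3 genes rose and 1 fell in RTA-408 skin, where 4.22% of all features were called higher and 1.57% lower. In vehicle skin 6 rose and 7 fell on that day, against 6.46% and 4.26% of all features. On days 1, 3, 7 and 14 no gene of the set rose in either irradiated arm. In RTA-408 skin 9, 13, 9 and 6 of 39 fell on these days, where 4.79%, 4.36%, 6.67% and 4.71% of all features were called lower. In vehicle skin 14, 14, 8 and 10 of 39 fell, where 4.65%, 3.97%, 6.06% and 5.96% of all features were called lower. The features called higher on these days made up 6.17%, 5.33%, 9.12% and 5.53% of all in RTA-408 skin and 5.08%, 4.57%, 7.92% and 9.47% in vehicle skin.

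These comparisons share the 6 baseline arrays, which came from 6 of the 9 rats. With the rat as a fixed block the count of called genes in RTA-408 skin was 0 on day -4, 8 on day 3 and 5 on day 7, and in vehicle skin it was 4, 2, 4, 3 and 1 on days -4, 1, 3, 7 and 14. With the spike-in set as a block it was 2, 1, 2 and 1 in RTA-408 skin on days -4, 3, 7 and 14, and in vehicle skin 3, 1 and 0 on days 3, 7 and 14.

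Single arrays also moved these counts. In RTA-408 skin the day -4 count was 2 without baseline replicate 1 or 3, 8 without baseline replicate 4 and 0 without RTA-408 replicate 3. On day 1 it was 4, 14 and 5 without RTA-408 replicate 1, 2 and 3, on day 3 it was 5 and 7 without replicate 2 and 3, and on day 14 it was 3 and 2 without replicate 2 and 3. In vehicle skin the count was 7 on day -4 and 9 on day 3 without vehicle replicate 1, 9 on day 1 without baseline replicate 2, and 8 on day 1 without any 1 of the vehicle arrays. Without vehicle replicate 3 it was 4 on day 7 and 1 on day 14, and without replicate 2 it was 5 on day 14. The day -4 calls of Elovl1, Elovl7, Mgll and Insig1 in RTA-408 skin, and the day 14 calls of Fasn, Scd, Mgll, Acacb, Acss2 and Insig2 in vehicle skin, were lost without replicate 3 of their group.

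Irradiated vehicle skin was then compared with unirradiated vehicle skin of the same day, which asks what radiation changed in DMSO-treated rats. On day -4, 2 genes of the 39 were higher and 5 lower in irradiated skin, where 3.23% and 4.19% of all features were called. On days 1, 3, 7 and 14, 6, 4, 4 and 6 of the 39 were lower, where 0.901%, 0.647%, 1.33% and 2.53% of all features were called lower, and none of the set was called higher, against 1.2%, 0.656%, 2.69% and 4.43% of all features. The median difference of the 39 genes was -0.24, -1.01, -1.09, -0.79 and -0.98 on days -4, 1, 3, 7 and 14, and that of all features was 0.07, -0.03, 0.05, -0.06 and 0.01. Differences were below 0 for 24, 36, 35, 33 and 36 of the 39 genes, and the share of all features below 0 was not counted. There were 2 unirradiated arrays on each day, and 0 of the 27 calls remained without each array in turn, although none changed sign. Without unirradiated replicate 1 the calls numbered 0, 0, 6, 1 and 1 on the 5 days, and without replicate 2 they numbered 0, 4, 0, 0 and 3. Without irradiated replicate 1 they numbered 4, 2, 1, 5 and 17, without replicate 2 they numbered 6, 1, 4, 2 and 2, and without replicate 3 they numbered 5, 1, 2, 1 and 0. Without unirradiated replicate 1 the day 1 median was -0.61, and without replicate 2 it was -1.48.

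**Figure D2:**
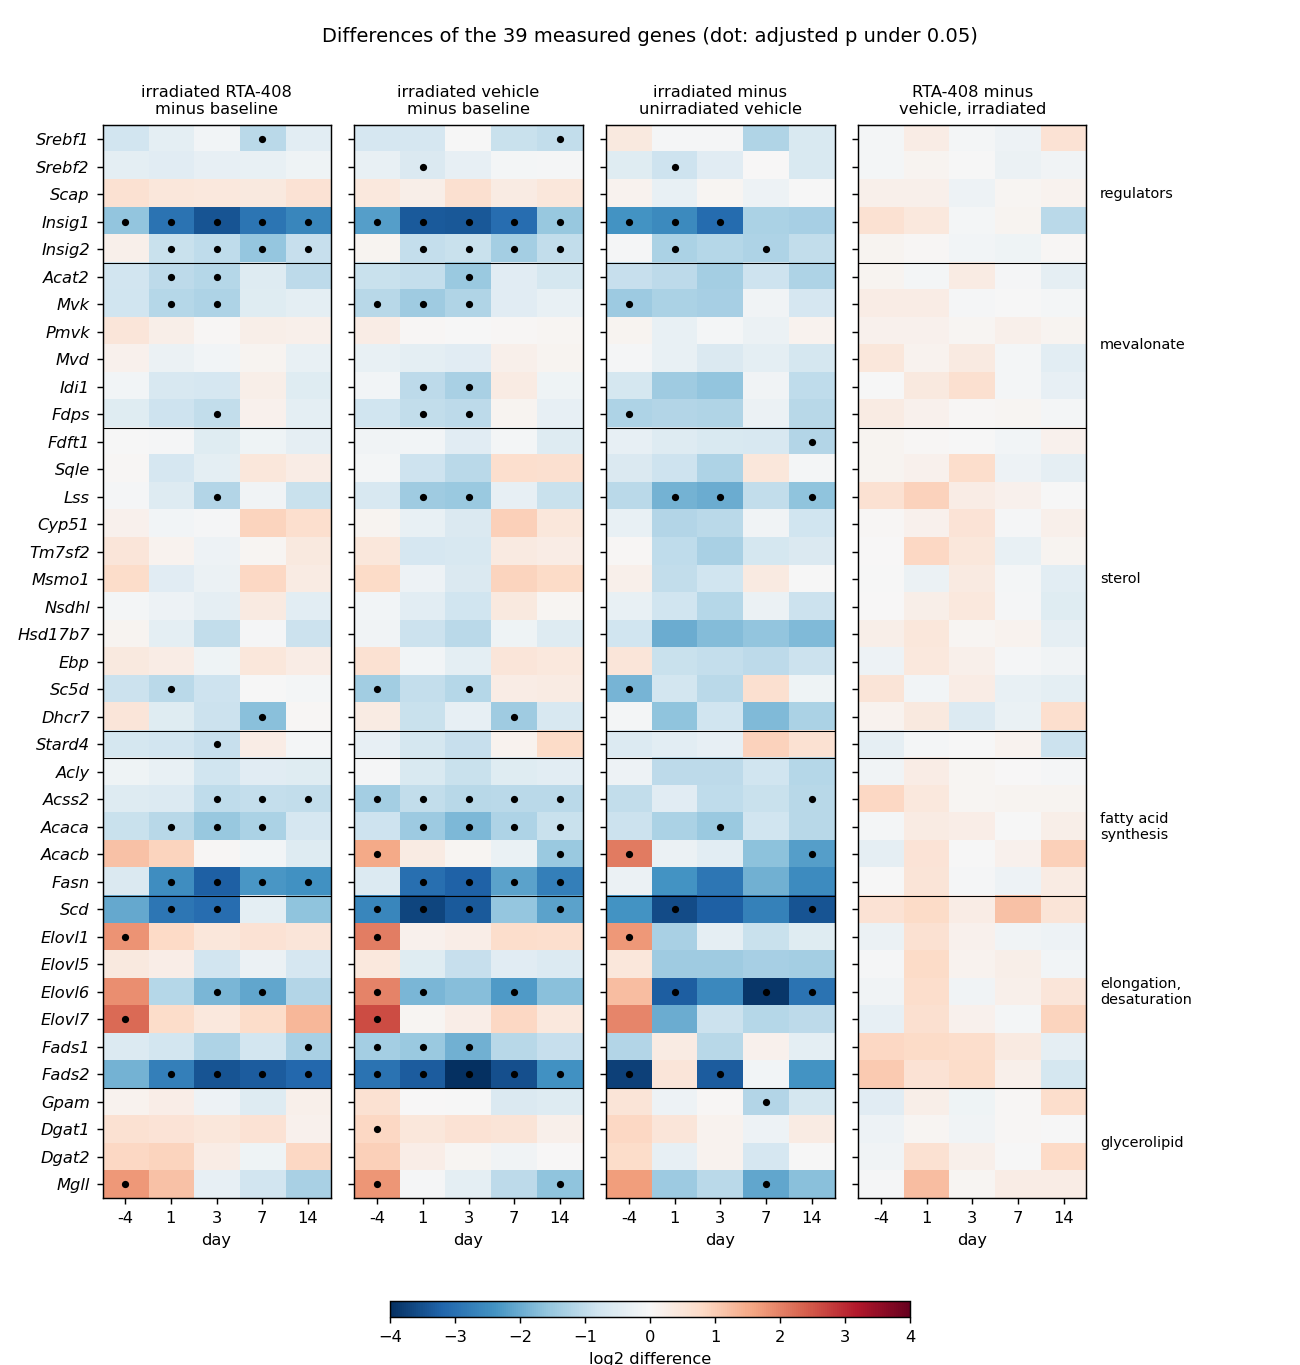
Log2 difference of 39 genes (rows, grouped by role) on days -4, 1, 3, 7 and 14 (columns) in 4 comparisons, irradiated RTA-408 minus baseline, irradiated vehicle minus baseline, irradiated minus unirradiated vehicle, and RTA-408 minus vehicle, with a dot where the adjusted p was under 0.05. The scale ends at 4 in either direction, 1 value (Fads2, irradiated vehicle minus baseline, day 3, -4.17) lies beyond it, and the RTA-408 minus vehicle panel holds no dot.

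Among the regulators, Insig1, which encodes the sterol-sensing anchor of SCAP and is itself an SREBP target, fell in irradiated skin on every day. In RTA-408 skin it had 12.74, 12.09 and 12.55 on day -4, 10.29, 12.14 and 10.88 on day 1, and 10.76, 10.05 and 10.96 on day 3. It then had 11.08, 11.27 and 11.02 on day 7 and 11.40, 11.21 and 11.66 on day 14. Every one of these arrays was below the lowest baseline array, since baseline ran from 12.95 through a median of 14.26 to 14.63. The differences from baseline were -1.59, -2.94, -3.45, -2.92 and -2.62 in day order (SE 0.47 each, adjusted p 0.0374, 5.67e-05, 6.06e-06, 2.64e-05 and 0.000262).

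In irradiated vehicle skin Insig1 had 12.07, 12.27 and 11.21 on day -4, 10.46, 10.73 and 10.83 on day 1, and 10.24, 11.32 and 10.41 on day 3. It had 11.49, 11.09 and 10.42 on day 7 and 12.28, 12.17 and 13.08 on day 14, when 1 array reached into the baseline range. The differences from baseline were -2.19, -3.37, -3.39, -3.04 and -1.53 in day order (SE 0.47 each, adjusted p 0.00213, 1.12e-05, 9.28e-06, 1.83e-05 and 0.0209). The calls of days 1, 3, 7 and 14 in RTA-408 skin and of days 1, 3 and 7 in vehicle skin remained under every alternative setting, with adjusted p at most 0.0259.

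Against unirradiated vehicle skin of the same day, Insig1 was lower by 2.38, 2.54 and 3.09 on days -4, 1 and 3 (differences of -2.38, -2.54 and -3.09, SE 0.60 each, adjusted p 0.0141, 0.0221 and 0.00462). The unirradiated arrays had 14.43 and 14.03, 12.98 and 13.43, and 12.17 and 15.32 on these days, all above the irradiated vehicle arrays. The day 3 value rests on the unirradiated array at 15.32, without which the difference was -1.51 (adjusted p 0.727). On days 7 and 14 the differences were -1.27 and -1.32 and did not pass (adjusted p 0.26 and 0.223). Unirradiated arrays then had 12.44 and 12.10 on day 7 and 14.92 and 12.75 on day 14.

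Insig2, the second INSIG gene, did not differ in call on day -4 and fell in both irradiated arms on days 1 to 14. In RTA-408 skin it reached 9.27, 9.95 and 9.60 on day 7, below every baseline array (10.56 to 12.04, median 10.97). That difference was -1.54 (SE 0.27, adjusted p = 8.05e-05), and its call remained under every alternative. Vehicle skin had 9.92, 10.02 and 9.39 on day 7, a difference of -1.37 from baseline (SE 0.27, adjusted p = 0.000425). The same arrays stood against 11.05 and 11.01 in unirradiated skin, a difference of -1.25 (SE 0.35, adjusted p = 0.0345).

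Srebf2, the SREBP gene tied most to cholesterol synthesis, had 10.06, 10.27 and 9.99 in irradiated vehicle skin on day 1, against 11.11 and 10.78 in unirradiated skin, and fell by 0.84 (difference -0.84, SE 0.23, adjusted p = 0.0471). On days -4, 3, 7 and 14 the same comparison gave -0.48, -0.46, 0.03 and -0.60, none of which passed, and the day 1 call was lost in 8 of 13 alternatives. Against baseline Srebf2 gave -0.39, -0.46, -0.33, -0.30 and -0.18 in RTA-408 skin and -0.31, -0.58, -0.32, -0.08 and -0.05 in vehicle skin (SE 0.18 each), of which day 1 in vehicle skin was called lower (adjusted p 0.0345). Srebf1, tied most to fatty acid synthesis, gave 0.38, -0.04, -0.06, -1.20 and -0.61 against unirradiated skin on the 5 days, with adjusted p of 0.0925 or more. Against baseline it gave -0.76, -0.38, -0.10, -1.08 and -0.41 in RTA-408 skin and -0.68, -0.66, -0.03, -0.88 and -0.98 in vehicle skin (SE 0.32 each). Of these, day 7 in RTA-408 skin (adjusted p 0.0162) and day 14 in vehicle skin (adjusted p 0.0297) were called lower, with arrays that overlapped baseline. Scap, the SREBP escort, ran from 7.96 to 9.42 over all arrays and was called in no comparison.

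In the mevalonate pathway, which carries carbon to farnesyl diphosphate, the genes stood lowest on days 1 and 3. The median difference from baseline over the 6 genes was -0.29, -0.74, -0.83, 0.14 and -0.39 in RTA-408 skin and -0.55, -0.98, -1.12, 0.07 and -0.23 in vehicle skin on days -4, 1, 3, 7 and 14. In RTA-408 skin 2 of the 6 fell on day 1 and 3 on day 3, and in vehicle skin 1 fell on day -4, 3 on day 1 and 4 on day 3. None was called on days 7 and 14. Over both arms and the 5 days, the shares of all features called lower lay between 1.57% and 6.67%. Acat2, the thiolase that joins acetyl-CoA units, fell in RTA-408 skin on day 3 (difference -1.13 from baseline, SE 0.35, adjusted p = 0.0345).

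Mvk, mevalonate kinase, whose promoter with 5 CCAAT boxes is printed above, had 8.13, 7.58 and 8.13 in irradiated vehicle skin on day -4, against 9.39 and 9.38 in unirradiated skin. It was lower by 1.44 (difference -1.44, SE 0.37, adjusted p = 0.015). Fdps, farnesyl diphosphate synthase, had 12.40, 12.73 and 11.95 in irradiated vehicle skin on that day, against 13.70 and 13.50 in unirradiated skin. Its difference was -1.24 (SE 0.38, adjusted p = 0.0402). On later days no mevalonate gene was called in this comparison, and Idi1, which isomerises isopentenyl diphosphate, gave -0.72, -1.41, -1.58, -0.15 and -1.03 on the 5 days.

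The 11 genes of the later sterol steps, which turn farnesyl diphosphate into cholesterol, had 0, 1, 1, 1 and 0 members called lower than baseline in RTA-408 skin and 1, 1, 2, 1 and 0 in vehicle skin on the 5 days. The shares of all features called lower were 1.57%, 4.79%, 4.36%, 6.67% and 4.71% in RTA-408 skin. In vehicle skin they were 4.26%, 4.65%, 3.97%, 6.06% and 5.96%, so a count of 0 or 1 of the 11 is near the share. The median difference of the 11 genes from baseline was 0.12, -0.39, -0.39, 0.07 and 0.04 in RTA-408 skin, and -0.08, -0.69, -0.64, 0.37 and 0.28 in vehicle skin. On day 3 all 11 differences were below 0 in either arm, and the share of all features below 0 was not counted. In unirradiated skin the median was 0.40, 0.48, 0.47, 0.63 and 0.77 on the 5 days. There 1 of the 11 was called, Ebp, which was higher on day 7, where 0.863% of all features were called higher.

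Lss, lanosterol synthase, was the sterol gene called most often against unirradiated skin. It had 8.32, 7.93 and 6.97 in irradiated vehicle skin on day 1, against 10.18 and 9.10 in unirradiated skin (difference -1.90, SE 0.45, adjusted p = 0.0206). On day 3 it had 7.51, 8.21 and 7.34 in irradiated skin, against 9.59 and 9.76 in unirradiated skin (difference -1.99, SE 0.45, adjusted p = 0.0145). On day 14 it had 8.70, 8.18 and 7.94 in irradiated skin, against 10.16 and 9.63 in unirradiated skin (difference -1.62, SE 0.45, adjusted p = 0.0231). On days -4 and 7 its difference did not pass (adjusted p 0.141 and 0.226).

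Sc5d, sterol C5-desaturase, fell on day -4 to 10.65, 9.80 and 9.91 in irradiated vehicle skin, against 11.98 and 11.98 in unirradiated skin (difference -1.85, SE 0.44, adjusted p = 0.00894). Fdft1, squalene synthase, had 12.14, 12.22 and 10.68 in irradiated vehicle skin on day 14, against 12.58 and 13.12 in unirradiated skin (difference -1.17, SE 0.35, adjusted p = 0.0359). The lowest of these is the array that stands apart, without which the difference was -0.67 (adjusted p 0.387). Dhcr7, which makes cholesterol from its last precursor, fell below every baseline array on day 7, to 9.02, 8.71 and 8.40 in RTA-408 skin and 9.41, 9.45 and 8.08 in vehicle skin, against 9.50 to 10.91 at baseline. Its differences were -1.68 (SE 0.41, adjusted p = 0.0035) and -1.41 (SE 0.41, adjusted p = 0.0165). Without replicate 3 the vehicle difference was -0.96 (adjusted p 0.23).

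Sqle, squalene epoxidase, a rate-controlling step after HMG-CoA reductase, was called in no comparison of groups on a single day. Against unirradiated skin it gave -0.59, -0.83, -1.23, 0.44 and -0.07. In vehicle skin it had 10.76, 10.73 and 9.98 on day 3 and 12.59, 11.97 and 12.21 on day 7, against 10.77 to 12.19 at baseline. Stard4, which carries cholesterol between membranes, fell in RTA-408 skin on day 3 (difference -0.93, SE 0.30, adjusted p = 0.0444). It had 6.93, 6.93 and 6.49 on day 3 and 8.07, 7.52 and 9.83 on day 14 in vehicle skin, where the array at 9.83 is the one that stands apart in macrophage markers.

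**Figure D3:**
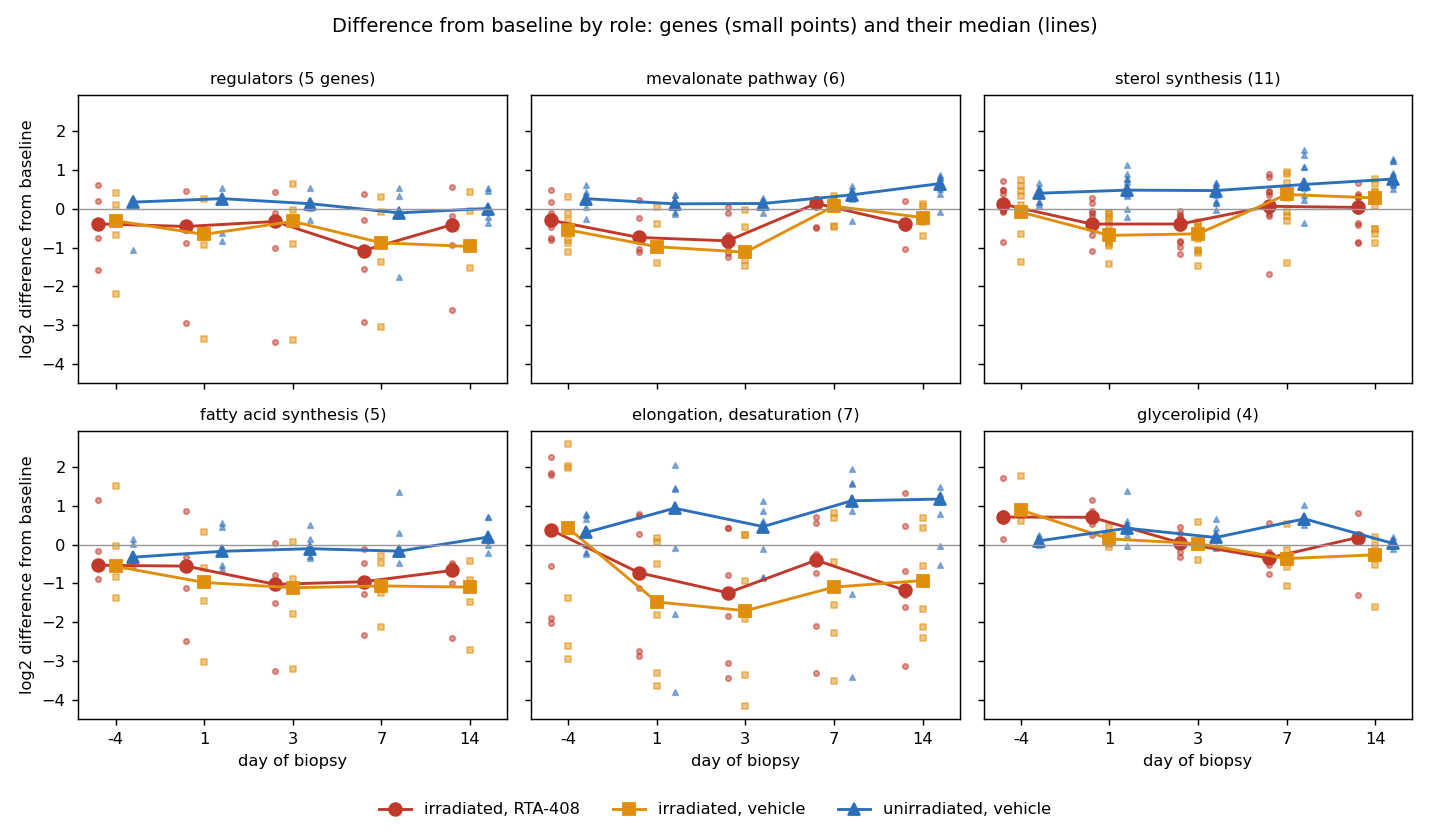
Log2 difference from baseline (vertical axis) on days -4, 1, 3, 7 and 14 (horizontal axis) in irradiated RTA-408, irradiated vehicle and unirradiated vehicle skin. Small points are single genes, and lines join the medians of each role. The sterol transporter Stard4 is not drawn. Mevalonate medians reached -0.83 in RTA-408 skin and -1.12 in vehicle skin on day 3 and were 0.14 and 0.07 on day 7, while fatty acid synthesis medians were -0.96 and -1.06 on day 7.

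For the 5 fatty acid synthesis genes, which make palmitate and its precursors, the median difference from baseline was -0.53, -0.55, -1.02, -0.96 and -0.66 in RTA-408 skin and -0.56, -0.97, -1.11, -1.06 and -1.09 in vehicle skin on days -4, 1, 3, 7 and 14. In RTA-408 skin 0, 2, 3, 3 and 2 of the 5 fell on days -4, 1, 3, 7 and 14. In vehicle skin 1, 3, 3, 3 and 4 of the 5 fell, and 1 rose on day -4. Over both arms and all days, the shares of all features called lower lay between 1.57% and 6.67%. In vehicle skin 6.46% of all features were called higher on day -4.

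Fasn, fatty acid synthase, which makes palmitate, had 8.79, 12.93 and 10.62 in RTA-408 skin on day 1 and 11.79, 8.91 and 9.36 on day 3. It had 11.11, 11.37 and 10.37 on day 7 and 11.29, 10.18 and 11.15 on day 14, against 12.06, a median of 13.07, and 15.11 at baseline. The arrays of days 3, 7 and 14 were all below baseline, and those of day 1 were not. Its differences were -3.26, -2.33 and -2.41 on days 3, 7 and 14 (SE 0.70 each, adjusted p 0.00189, 0.018 and 0.0218).

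In vehicle skin Fasn had 10.47, 9.90 and 10.39 on day 1, 9.11, 10.67 and 10.41 on day 3, and 11.90, 9.99 and 9.79 on day 14. Every one of these was below the baseline arrays, with differences of -3.03, -3.22 and -2.72 (SE 0.70 each, adjusted p 0.00404, 0.00219 and 0.00556). Against unirradiated skin the differences were -0.24, -2.39, -2.88, -1.91 and -2.51 on the 5 days (SE 0.90 each) and none passed, with adjusted p between 0.0904 and 0.927. Baseline Fasn itself spread widely, with an SD of 1.17 (n = 6).

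Acaca and Acacb encode the acetyl-CoA carboxylases, the cytosolic form that feeds fatty acid synthesis and the mitochondrial-surface form that restrains fatty acid oxidation. Acaca had 8.67, 9.04 and 9.53 in irradiated vehicle skin on day 3, against 10.41 and 10.74 in unirradiated skin (difference -1.50, SE 0.38, adjusted p = 0.0368). Against baseline (9.86 to 11.23, median 10.99) the same arrays gave -1.79 (SE 0.30, adjusted p = 0.000103), a call that remained under every alternative.

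Acacb was called higher on day -4 and lower on day 14. On day -4 it had 10.58, 9.09 and 9.22 in irradiated vehicle skin, against 7.60 and 7.49 in unirradiated skin, and was higher by 2.08 (SE 0.59, adjusted p = 0.0267). On day 14 it had 7.15, 6.29 and 6.46 in irradiated vehicle skin, against 7.99 and 9.65 in unirradiated skin, and was lower, with a difference of -2.19 (SE 0.59, adjusted p = 0.0202). Without the unirradiated array at 9.65 the difference was -1.36 (adjusted p 0.333). Against baseline the vehicle differences were 1.52 on day -4 and -1.47 on day 14 (SE 0.46 each, adjusted p 0.0265 and 0.0236).

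Acss2 makes acetyl-CoA from acetate. It had 7.99, 7.29 and 7.84 in vehicle skin on day -4, below every baseline array (8.44 to 10.07, median 8.93), and its difference of -1.37 (SE 0.27, adjusted p = 0.000775) remained called under every alternative. Against unirradiated skin it was lower on day 14, at 8.37, 8.06 and 7.50 in irradiated skin and 8.80 and 9.35 in unirradiated skin (difference -1.10, SE 0.34, adjusted p = 0.0454). Acly, which makes acetyl-CoA from citrate, was called in no comparison.

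The elongases and desaturases shape fatty acids after palmitate, and they included the largest fall of the set, that of Fads2. Fads2, the delta-6 desaturase that opens the synthesis of polyunsaturated fatty acids, had 9.45, 8.58 and 8.92 in RTA-408 skin on day 1 and 8.12, 7.83 and 8.89 on day 3. It had 8.06, 8.81 and 8.33 on day 7 and 7.99, 8.34 and 9.44 on day 14. Baseline ran from 9.66 through a median of 11.80 to 13.34, above all of these arrays. The differences were -2.74, -3.44, -3.33 and -3.14 (SE 0.67 each, adjusted p 0.00551, 0.000633, 0.000483 and 0.00177).

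In vehicle skin Fads2 had 8.68, 9.56 and 8.07 on day -4, 8.89, 8.42 and 7.91 on day 1, 7.74, 7.33 and 7.60 on day 3, and 8.23, 8.11 and 8.28 on day 7, all below baseline. Its differences were -2.96, -3.32, -4.17 and -3.52 (SE 0.67 each, adjusted p 0.00351, 0.00115, 6.98e-05 and 0.000294). Against unirradiated skin it was lower on day -4 (difference -3.74, SE 0.87, adjusted p = 0.00748) and on day 3 (difference -3.31, SE 0.87, adjusted p = 0.045). The unirradiated arrays had 12.58 and 12.43 on day -4 and 9.83 and 11.91 on day 3. On days 1, 7 and 14 that difference was 0.49, -0.10 and -2.39, and none passed.

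Fads2 was also called lower in the unirradiated arm. It had 6.66 and 9.19 on day 1 (difference from baseline -3.80, SE 0.77, adjusted p = 0.0217) and 8.92 and 7.70 on day 7 (difference -3.41, SE 0.77, adjusted p = 0.013). Without the array at 6.66 the day 1 difference was -2.54 (adjusted p of 1.00), and neither call remained with the rat as a block or with only the compared groups fitted. It had 12.51 and 10.89 on day 14, within the baseline range. The mean of 10 hair follicle markers was 10.89 and 13.93 on the unirradiated arrays of day 1, 9.08 and 6.11 on day 7 and 14.64 and 12.86 on day 14, against 11.12 to 14.83 at baseline. In the baseline group the array lowest in Fads2 (9.66) was also the lowest in these markers (11.12). The part of hair follicle content in the Fads2 result was not tested.

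**Figure D4:**
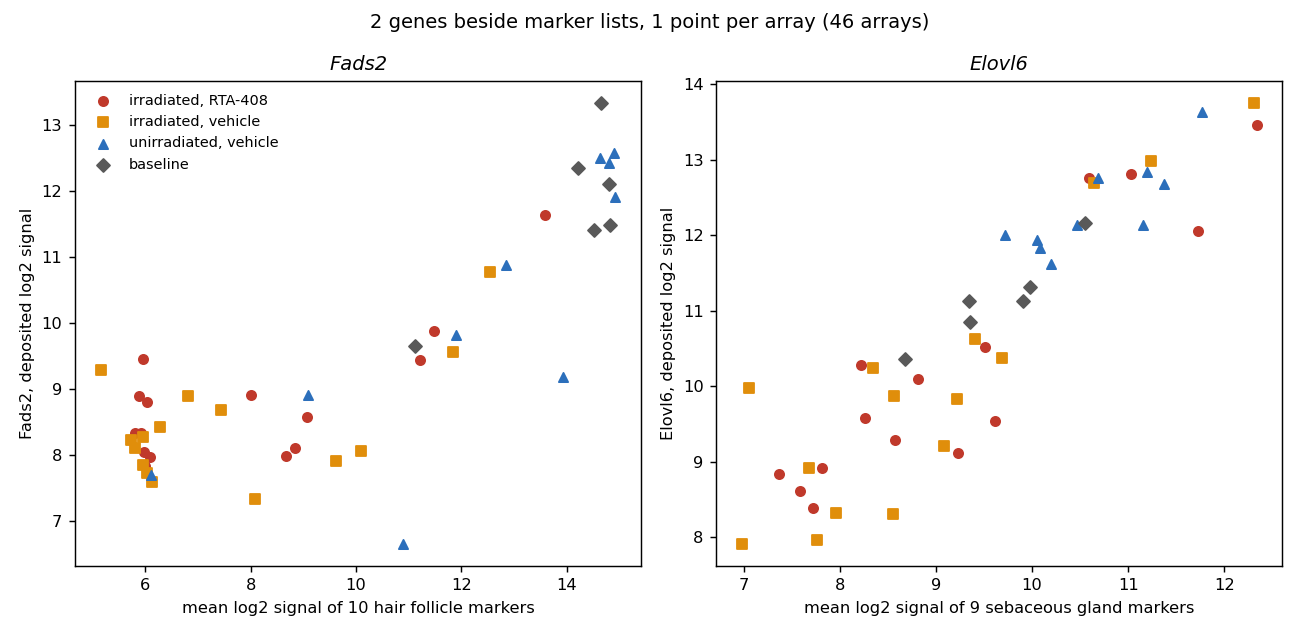
Left, Fads2 signal (vertical axis, log2) against the mean of 10 hair follicle markers (horizontal axis, log2), and right, Elovl6 against the mean of 9 sebaceous gland markers, with 1 point for each of 46 arrays by group. The pairing was chosen after the values were seen. Arrays of irradiated skin on day 7 lie at 5.73 to 6.03 on the hair follicle axis and at 8.06 to 8.81 in Fads2.

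Scd, the stearoyl-CoA desaturase that makes oleate, had 12.52, 10.62 and 11.15 in RTA-408 skin on day 3, against 13.63, a median of 14.47, and 15.10 at baseline (difference -3.05, SE 0.68, adjusted p = 0.00293). Vehicle skin had 12.45, 12.10 and 11.04 on day -4, 10.83, 10.77 and 10.87 on day 1, 10.27, 12.46 and 10.64 on day 3, and 13.47, 11.11 and 12.46 on day 14. All of these were below baseline, with differences of -2.61, -3.66, -3.36 and -2.13 (SE 0.68 each, adjusted p 0.0104, 0.00047, 0.00112 and 0.0277). On day 7 the arms had 15.33, 13.90 and 13.01 (RTA-408) and 14.69, 12.85 and 11.22 (vehicle), and neither was called.

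Against unirradiated skin Scd was lower on day 1, when the unirradiated arrays had 15.48 and 13.30 (difference -3.57, SE 0.88, adjusted p = 0.0264), and on day 14, when they had 15.63 and 15.94 (difference -3.44, SE 0.88, adjusted p = 0.0144). Its differences on days -4, 3 and 7 were -2.38, -3.25 and -2.69 and did not pass (adjusted p 0.0933, 0.0536 and 0.0767). Fads1, the delta-5 desaturase, fell in vehicle skin to 10.82, 10.95 and 10.23 on day 1 and 10.21, 10.65 and 9.79 on day 3, against 11.28 to 14.02 at baseline (differences -1.48 and -1.93, SE 0.43 each, adjusted p 0.022 and 0.00256). In RTA-408 skin it was below baseline on day 14 (difference -1.30, SE 0.43, adjusted p = 0.0453).

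Elovl6, which lengthens palmitate, rose in vehicle skin on day -4 and fell on later days. It had 12.76, 12.80 and 13.47 in RTA-408 skin and 13.75, 12.99 and 12.70 in vehicle skin on day -4, against 10.36, a median of 11.13, and 12.17 at baseline. The vehicle difference of 1.99 passed (SE 0.60, adjusted p = 0.028), and the RTA-408 difference of 1.85 did not (adjusted p 0.0611). On day 7 it had 9.29, 9.53 and 8.38 in RTA-408 skin (difference -2.09, SE 0.60, adjusted p = 0.0136).

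Irradiated vehicle skin had 10.37, 8.30 and 7.96 of Elovl6 on day 7, against 12.83 and 12.68 in unirradiated skin (difference -3.88, SE 0.78, adjusted p = 0.00378). It was also lower than unirradiated skin on days 1 and 14, with differences of -3.28 and -2.95 (SE 0.78 each, adjusted p 0.0211 and 0.0174). On days -4 and 3 the differences were 1.23 and -2.58 and did not pass (adjusted p 0.388 and 0.0887). The mean of 9 sebaceous gland markers was 12.31, 11.24 and 10.64 in irradiated vehicle skin on day -4, against 9.72 and 10.08 in unirradiated skin. On day 14 it was 9.41, 7.06 and 6.98, against 10.68 and 11.16, and 6 of the 9 markers were called lower, where 2.53% of all features were. The part of sebaceous gland content in these values was not tested.

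Elovl1 and Elovl7 make long-chain and very-long-chain fatty acids. Elovl1 had 16.72, 17.29 and 18.30 in RTA-408 skin and 18.23, 17.63 and 17.13 in vehicle skin on day -4, against 14.52 to 16.60 at baseline. It rose by 1.81 and 2.04 (SE 0.36 each, adjusted p 0.00169 and 0.000269), and by 1.72 over unirradiated skin, which had 15.91 and 15.97 (SE 0.46, adjusted p = 0.0194). Elovl7 had 15.30, 16.05 and 16.60 in RTA-408 skin and 17.00, 16.20 and 15.71 in vehicle skin on that day, against 11.91 to 15.09 at baseline. It rose by 2.28 and 2.60 (SE 0.62 each, adjusted p 0.0233 and 0.00525). After day -4 neither gene was called in an irradiated arm.

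Of the 4 glycerolipid genes, Mgll, monoglyceride lipase, which breaks down monoacylglycerol, was called most often. It had 12.41, 11.70 and 13.36 in RTA-408 skin and 12.91, 12.40 and 12.31 in vehicle skin on day -4, against 10.16, a median of 10.82, and 11.29 at baseline. It rose by 1.72 and 1.77 (SE 0.44 each, adjusted p 0.0163 and 0.00777). On day 7 it had 10.03, 9.84 and 9.24 in irradiated vehicle skin, against 11.90 and 11.67 in unirradiated skin, and was lower (difference -2.08, SE 0.57, adjusted p = 0.0326). Its differences on days -4, 1, 3 and 14 of that comparison were 1.67, -1.46, -1.07 and -1.67 and did not pass. On day 14 vehicle skin had 9.82, 8.78 and 8.87, below baseline (difference -1.61, SE 0.44, adjusted p = 0.00985).

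Gpam, which attaches the opening fatty acid to glycerol 3-phosphate, was lower on day 7 in irradiated vehicle skin, at 12.16, 11.72 and 11.65, against 13.06 and 12.96 in unirradiated skin (difference -1.17, SE 0.31, adjusted p = 0.0263). Dgat1 and Dgat2 complete triglyceride synthesis. Dgat1 rose by 0.83 in vehicle skin on day -4 (SE 0.24, adjusted p = 0.0193). Dgat2 gave 0.72, -0.34, 0.14, -0.66 and -0.01 against unirradiated skin and was called in no comparison. The 11 adipocyte markers had a median difference of -1.68 from baseline in vehicle skin on day 14. Of these markers 7 were called lower, where 5.96% of all features were. On that day 1 array was at a marker mean of 9.39 and the others at 12.18 and 10.59. The part of fat content in the glycerolipid values was not tested.

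Whether these levels changed over the 5 days was tested within each arm with limma's moderated F-test. In RTA-408 skin 4 of 39 genes passed, where 6.26% of all features did, namely Mgll (adjusted p = 0.000331), Elovl6 (0.00127), Insig2 (0.00448) and Dhcr7 (0.0195). In vehicle skin 14 of 39 passed, where 14.2% of all features did. The smallest adjusted p values there were those of Mgll (0.000157), Elovl6 (0.00017), Sc5d (0.0019), Acacb (0.00229), Stard4 (0.00379) and Sqle (0.00393). In unirradiated skin 1 of 39 passed, where 1.13% of all features did, and this was Fads2 (adjusted p = 0.0172). The radiation difference itself changed over the days for 4 of 39 genes, where 2.16% of all features passed, namely Acacb (0.0195), Elovl6 (0.0318), Mgll (0.0320) and Elovl1 (0.0406). All 4 were positive on day -4 and negative on day 14. Without irradiated replicate 1 this count was 2, and it was 0 without irradiated replicate 2 or 3 or without unirradiated replicate 2. The count within vehicle skin was 7, 7 and 6 without replicate 1, 2 and 3, that within RTA-408 skin was 1 without replicate 3, and that within unirradiated skin was 0 without replicate 1.

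Unirradiated vehicle skin was compared with baseline with 2 arrays a day, which leaves little room for calls. No gene of the set was called on days -4, 3 and 14. On these days 1, 1 and 12 had an unadjusted limma p under 0.05. The share of all features under that unadjusted threshold was not counted, so these numbers have no background. On day -4, 0.0129% of all features were called higher and 0.00431% lower, and on days 3 and 14 these shares were 0%. On day 1, 1 of 39 was called lower, where 0.272% of all features were called higher and 0.0431% lower, and this was Fads2. On day 7, 1 of 39 was called lower and 2 higher, where 1.85% and 0.863% of all features were. The 2 were Elovl1, at 17.21 and 17.19 (difference 1.57, SE 0.42, adjusted p = 0.0341), and Ebp, a sterol isomerase, at 11.90 and 12.13 (difference 1.52, SE 0.43, adjusted p = 0.0491). On day 14 both stood at differences of 1.18 and 1.28 that did not pass (adjusted p of 1 each). Neither the Elovl1 nor the Ebp call remained without either unirradiated array, with the rat as a block or with only the compared groups fitted. Srebf1 gave -1.06 on day -4 and did not pass (adjusted p 0.396), with adjusted p between 0.0434 and 0.985 over the alternatives. The median of the 39 genes was 0.19, 0.34, 0.15, 0.51 and 0.61 on the 5 days, and that of all features was 0.03, 0.05, 0.00, 0.06 and 0.00.

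RTA-408 was compared with vehicle in irradiated skin, which asks what the drug adds. No gene of the 39 was called on any of the 5 days, where 0.0474%, 0.0733%, 0.00431%, 0% and 0% of all features were called in either direction. At an unadjusted p under 0.05 there were 1, 3, 0, 0 and 2 genes, and the share of all features under that threshold was not counted by day. The median difference was 0.01, 0.34, 0.09, -0.02 and -0.02, and that of all features was -0.02, -0.00, -0.01, 0.02 and 0.01. On day 1, 35 of the 39 differences were above 0. The share of all features above 0 was not counted, so this number has no background. NRF2 target genes, read on the same arrays, were called higher for 6 of 11 genes on day -4 and 7 of 11 on day 1, and none was called later.

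Among the regulators, Srebf2 gave -0.08, 0.12, -0.00, -0.22 and -0.13 on days -4, 1, 3, 7 and 14 (SE 0.21 each), and its 95% interval on day 7, the day of its smallest p, ran from -0.64 to 0.20. Srebf1 gave -0.07, 0.28, -0.07, -0.20 and 0.58 (SE 0.37 each). Insig1 gave 0.60, 0.43, -0.06, 0.12 and -1.09 (SE 0.54 each), and the last of these did not pass (adjusted p 0.403). RTA-408 arrays had 11.40, 11.21 and 11.66 on that day, against 12.28, 12.17 and 13.08 in vehicle skin, with no overlap.

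Of the sterol genes, Sqle gave 0.12, 0.17, 0.70, -0.22 and -0.35 (SE 0.42 each) and Idi1 gave -0.00, 0.40, 0.64, -0.09 and -0.33 (SE 0.39 each). The day 3 values were the smallest in p of that day and did not pass. On day 1 Lss had 7.80, 9.31 and 8.84 in RTA-408 skin, against 8.32, 7.93 and 6.97 in vehicle skin (difference 0.91, SE 0.40, unadjusted p = 0.0295, adjusted p of 1). The highest of these is RTA-408 replicate 2, which was also the highest of the 6 arrays in the sebaceous marker mean (11.72, against 7.81 and 9.23 on the other RTA-408 arrays and 8.57, 7.96 and 9.22 on the vehicle arrays). The part of sebaceous gland content in the day 1 median was not tested. Stard4 gave -0.86 on day 14 (SE 0.35, adjusted p 0.31), when vehicle replicate 3 was at 9.83.

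Among the fatty acid genes, Fasn gave -0.02, 0.53, -0.04, -0.19 and 0.31 (SE 0.81 each) and Scd gave 0.58, 0.77, 0.31, 1.16 and 0.51 (SE 0.79 each). The day 7 interval of Scd ran from -0.44 to 2.76. Elovl6 gave -0.14, 0.69, -0.13, 0.19 and 0.48 (SE 0.70 each) and Fads2 gave 1.06, 0.57, 0.73, 0.19 and -0.72 (SE 0.77 each). On day -4 Acss2 had 8.67, 8.28 and 8.67 in RTA-408 skin, against 7.99, 7.29 and 7.84 in vehicle skin. Those arrays did not overlap, and the difference was 0.84 (SE 0.31, unadjusted p = 0.00985, adjusted p of 1). Fads1 also gave 0.84 on day -4 and did not pass.

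Among the glycerolipid genes, Dgat2 gave -0.15, 0.60, 0.22, -0.03 and 0.81 (SE 0.41 each) and Mgll gave -0.05, 1.22, 0.07, 0.30 and 0.31 (SE 0.51 each). The day 1 Mgll arrays were 11.29, 13.28 and 11.22 with RTA-408, against 10.20, 10.63 and 11.29 with vehicle (unadjusted p = 0.0228, adjusted p of 1). Gpam gave 0.72 on day 14 (SE 0.28, adjusted p 0.296). The drug difference changed over the days for 0 of 39 genes by the moderated F-test, where 0.0129% of all features passed.

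Each rat was also used once, through the mean of its 5 days. None of the 39 genes was called with 3 rats an arm, where 0% of all features were called, and 5 genes had an unadjusted p under 0.05, as did 790 of all features. These were Scd (0.67), Fads1 (0.45), Mgll (0.37) and Acss2 (0.31) above 0 and Stard4 (-0.23) below 0. Scd averaged 12.48 ± 0.15 in RTA-408 rats and 11.82 ± 0.55 in vehicle rats (SD, n = 3 each). The interval of Insig1 ran from -0.26 to 0.26 around a difference of -0.00.

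**Figure D5:**
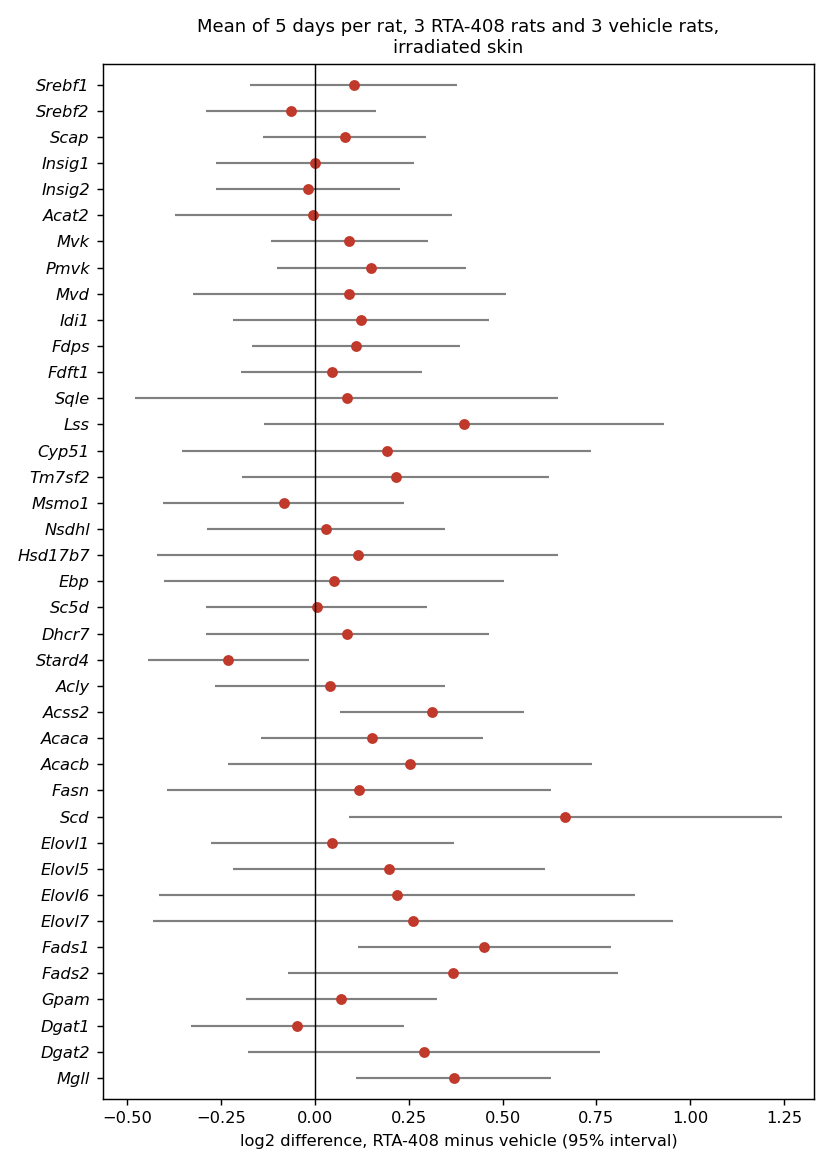
Difference of RTA-408 minus vehicle (horizontal axis, log2) in the mean of the 5 days of each rat, with its 95% interval, for 39 genes by role (vertical axis), from 3 rats an arm. The interval of Scd runs from 0.09 to 1.24 and that of Insig1 from -0.26 to 0.26, and no gene passed after adjustment.

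Other genes of lipid synthesis and of cholesterol handling were read from lists chosen for this work. Of 27 further lipid synthesis genes measured, 1 was lower in irradiated than in unirradiated vehicle skin on each of days -4, 1 and 14, where 4.19%, 0.901% and 2.53% of all features were, and none was called otherwise. So few calls are near the share of all features. These were the acyl-CoA synthetase Acsl3 on day -4 (difference -2.16, SE 0.49, adjusted p = 0.00707), Hacd3, a dehydratase of elongation, on day 1 (-1.26, SE 0.32, adjusted p = 0.0313), and malic enzyme Me1 on day 14 (-2.05, SE 0.49, adjusted p = 0.00902). Me1 had 13.68, 13.71 and 10.88 in irradiated skin, against 14.73 and 14.88 in unirradiated skin, and the lowest is the array that stands apart.

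Against baseline, Acsl3 and Fads3 were chosen after their values were seen, so they do not stand for the 27 genes. Over both irradiated arms and the 5 days, the shares of all features called lower lay between 1.57% and 6.67%. Acsl3 had 10.51, 11.12 and 10.42 in RTA-408 skin and 10.28, 9.86 and 10.72 in vehicle skin on day -4, against 11.23 to 12.84 at baseline. It fell on every day in either arm, by 1.39 to 1.56 in RTA-408 skin and by 1.41 to 1.88 in vehicle skin. Fads3, a relative of Fads2, fell on days 1 to 14 in either arm, with differences of -2.65 to -3.02 in RTA-408 skin and -2.42 to -3.24 in vehicle skin. In unirradiated skin Fads3 was also lower on day 7 (difference -3.07, SE 0.76, adjusted p = 0.0238).

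Of 19 cholesterol handling genes, 3 were higher and 1 lower in irradiated than in unirradiated vehicle skin on day -4, 1 and 1 on each of days 3 and 7, and 5 and 0 on day 14. The shares of all features called were 3.23% higher and 4.19% lower on day -4 and 4.43% higher on day 14, so the lower count of day -4 is near that share. They were 0.656% higher and 0.647% lower on day 3, and 2.69% and 1.33% on day 7. Counts of 1 are too few to read against these shares. Nr1h3, which encodes the oxysterol receptor LXR alpha, had 9.95, 9.72 and 9.79 in irradiated skin on day -4, against 8.07 and 8.20 in unirradiated skin (difference 1.68, SE 0.25, adjusted p = 0.000115). It rose over baseline in RTA-408 skin as well, by 1.42 on day -4 and 1.82 on day 1 (SE 0.19 each, adjusted p 9.29e-06 and 4.79e-08). Cyp7b1, an oxysterol hydroxylase, had 9.09, 9.94 and 11.25 in irradiated vehicle skin on day 7, against 6.82 and 6.84 in unirradiated skin (difference 3.26, SE 0.57, adjusted p = 0.00114).

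Pltp, the phospholipid transfer protein, and the sterol exporter Abcg1 were higher on day 14, by 2.57 and 1.86 (SE 0.65 and 0.50, adjusted p 0.0127 and 0.0202). Abcg1 had 9.82, 11.09 and 12.98 in irradiated skin, against 9.26 and 9.63 in unirradiated skin. All 10 macrophage markers were higher on that day, when 4.43% of all features were called higher. Marker means were 11.43, 12.38 and 15.92 in irradiated skin, against 9.04 and 10.08 in unirradiated skin, and the array at 15.92 is also that of the highest Abcg1. The part of macrophage content in these differences was not tested.

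Hair follicle markers were low in irradiated skin after day -4. Of 10 measured, 9, 9, 10 and 7 were lower than baseline in RTA-408 skin on days 1, 3, 7 and 14, and 9, 9, 10 and 9 in vehicle skin. The shares of all features called lower on these days were 4.79%, 4.36%, 6.67% and 4.71% in RTA-408 skin. In vehicle skin they were 4.65%, 3.97%, 6.06% and 5.96%. Shh was at or below the median negative control on all arrays of every arm on days 1 and 3. On day 7, 5 of the 10 markers (Krt25, Krt28, Krt71, Krt35 and Shh) were at or below it on all RTA-408 arrays and 6 (the same with Krt73) on all vehicle arrays. Marker means were then 5.97, 6.03 and 5.92 in RTA-408 skin and 5.73, 5.81 and 5.96 in vehicle skin, against 9.08 and 6.11 in unirradiated skin and 11.12 to 14.83 at baseline. Of 9 sebaceous markers, 2 rose in RTA-408 skin and 3 in vehicle skin over baseline on day -4, where 4.22% and 6.46% of all features were called higher. On day 3, 2 and 3 were lower, where 4.36% and 3.97% of all features were. Fa2h was at or below the median negative control in every group. Pnpla5 was at or below it on every array of some groups, such as both irradiated arms on day 14. Both genes enter the sebaceous marker means. The part of these cell types in the falls of Insig1, Fasn, Scd and Fads2 was not tested.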

How the data were processed

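RNA of whole skin (mean RIN 7.15, 100 ng an array) was read on one-colour arrays, per the labels' protocols. The authors deposited log2 values for 24834 features. Their normalization method was not given in the sources used here. Columns were matched to samples by their names, and 1 unirradiated day 1 array whose description names another day was placed by its title. After 1646 control features were left out, 23188 features were tested, of which 15049 carried 1 gene symbol and 8139 none. The members and lists were chosen with earlier results of these data known.

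limma 3.58.1 in R 4.3.3 fitted 1 mean for each of the 16 groups on all 46 arrays (30 residual degrees of freedom), with moderated tests adjusted by the Benjamini-Hochberg method over 23188 features for each comparison and day. Arrays of 1 rat are not independent, and p-values measure the spread between these biopsies. The number of arrays limits the precision. Named genes were up to 6 called genes a direction, comparison and day with the largest differences and arrays that did not overlap, or the 2 with the smallest p where none was called, plus a fixed panel. The panel covered only the drug and radiation comparisons. Results outside this rule were chosen after their values were seen. They included Scap and Acly, and against baseline Acsl3, Fads3, Srebf1, Srebf2 and, in RTA-408 skin, Stard4 on day 3 and Elovl6 on day -4. Insig1 against baseline in vehicle skin on day 14 was also outside it. The code was tested on simulated data. Deviations from group means of arrays of the same rat had a median correlation of 0.018 (102 pairs), against -0.001 for different rats (883 pairs). Alternatives were a filter on dim features, array weights, blocks for rat, replicate number and spike-in set, the compared groups alone, single spike-in sets, and each array left out.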

Additional observations from a re-analysis of the deposited data

Results flagged for a closer look

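At baseline, 3 of the 39 genes had an array far from the other 5, with a gap over the group's range above Dixon's 95% critical value, which chance passes in about 1 in 20 groups. Scap was at 7.96 in replicate 3, against 8.44 on the nearest array (gap share 0.651). Ebp was at 11.5 in replicate 2, against 10.47 on the nearest array (gap share 0.687). Acaca was at 9.86 in replicate 4, against 10.9 on the nearest array (gap share 0.773), and this array was also the lowest at baseline in Fads2 and in the hair follicle markers.

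The difference between irradiated and unirradiated vehicle skin itself changed over the 5 days by limma's moderated F-test for Acacb (adjusted p = 0.0195), Elovl6 (adjusted p = 0.0318), Mgll (adjusted p = 0.0320) and Elovl1 (adjusted p = 0.0406). The number of genes that passed was 0 to 3 when each replicate was left out in turn.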

How the results depend on the processing

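Precision is limited by 2 or 3 arrays a group, by repeated biopsies of 9 rats, and by spike-in sets that overlap with day. Settings altered the number of called genes as follows, and where no construction shows it the cause was not tested. Without the 5797 dimmest features, irradiated against unirradiated skin had 7 calls on day 3. With array weights it had 13 on day -4 and 1 on day 3, RTA-408 against baseline had 11 on day -4 and 16 on day 1, unirradiated against baseline had 1 on day -4 and 5 on day 7, and the F-tests had 8 for the radiation effect and 8 within RTA-408 skin. With the replicate number as a block, a number that did not pair arrays (median correlation 0.042 over 10 pairs of irradiated and unirradiated arrays), irradiated against unirradiated skin had 2 on day 7. With the rat as a block, RTA-408 against baseline had 0, 8 and 5 on days -4, 3 and 7, vehicle had 4, 2, 4, 3 and 1 on the 5 days, and unirradiated skin had 0 on days 1 and 7. With only the compared groups fitted, irradiated against unirradiated skin had 3, 0 and 0 on days 1, 3 and 14, RTA-408 against baseline had 5 on day 1, vehicle had 3 on day 14, and unirradiated skin had 0 on days 1 and 7. Settings chosen after seeing the data used the spike-in sets. With the set as a block, RTA-408 against baseline had 2, 1, 2 and 1 on days -4, 3, 7 and 14, vehicle had 3, 1 and 0 on days 3, 7 and 14, unirradiated skin had 0 on day 7, and Scap in unirradiated skin on day 3 turned to -0.10, from an uncalled 0.54. Within set I, irradiated against unirradiated skin had 2 and 0 on days -4 and 1, RTA-408 against baseline 0 and 4, vehicle 5 and 4, and unirradiated skin 0 on day 1. Within set III, irradiated against unirradiated skin had 0, 1 and 14 on days 3, 7 and 14. Leaving out each array gave, in day order, 0 to 6, 0 to 4, 0 to 6, 0 to 5 and 0 to 17 calls for irradiated against unirradiated skin, 0 to 8, 4 to 14, 5 to 14, 6 to 10 and 2 to 9 for RTA-408 against baseline, 7 to 15, 8 to 14, 9 to 17, 4 to 11 and 1 to 14 for vehicle against baseline, and 0, 0 to 3, 0, 0 to 4 and 0 for unirradiated against baseline. It gave 0 for RTA-408 against vehicle except 0 to 1 on day 14, and for the F-tests 0 (drug), 0 to 3 (radiation), 1 to 3 (RTA-408), 6 to 7 (vehicle) and 0 to 1 (unirradiated). A lone unirradiated array was assumed to vary like the other groups. The 105 results for single genes were each counted once for every alternative setting, so 1 result enters many times. Of these repeats, 1256 kept direction and side of the threshold, 336 lost the call, 2 gained one and 1 turned.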
